A study of Mus musculus with 2 samples.

Results

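Genes of cholesterol and fatty acid synthesis that are controlled by the sterol regulatory element binding proteins (SREBPs) were examined in mouse bone marrow macrophages treated with RANKL. The set was given as 29 named genes of the pathway, and no value here enters the rule, though the set was put together with earlier results of these data known. It holds a sterol branch of 18 genes and a fatty acid branch of 11 genes. Of the 29, 28 were found among the 16614 genes listed in both libraries, with Msmo1 under its older symbol Sc4mol, and Hmgcs1 was not analysed here. Marrow from femur and tibia of C57BL/6 mice had been grown for 3 days with M-CSF, a growth factor for macrophages, and then for 2 days with RANKL, the cytokine that turns macrophages into bone-resorbing osteoclasts. There was 1 library of WT cells and 1 library of Foxo3 KO cells, which lack the forkhead transcription factor FoxO3, and both groups received M-CSF and RANKL. The labels used here give no knockout allele, no animal age and no number of animals behind a library.

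SREBPs are transcription factors made as precursors in the membrane of the endoplasmic reticulum. When sterols are scarce, the escort protein Scap carries the precursor to the Golgi, where the proteases encoded by Mbtps1 and Mbtps2 release the active factor. When sterols are plentiful, Insig proteins hold Scap back, and Insig1 is itself an SREBP target. Srebf2 is known mainly for driving cholesterol synthesis and uptake, and Srebf1 for driving fatty acid synthesis. Srebf1, Fasn and the Scd genes are also known targets of the oxysterol receptors LXR. Osteoclasts are known to need cholesterol in their membranes for fusion and survival.

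Levels are in FPKM, a unit scaled for transcript length and library size, which can be set side by side between genes. The difference of a gene is its log2 ratio, log2(KO + 1) minus log2(WT + 1), where 1 FPKM was added to steady low values, and this understates the difference of low genes. Genes with 1 FPKM or more in either library, 10003 in all, were called measured. No group has a replicate, so no difference was tested, no p-value is given, and each value describes these 2 libraries only. The sequencing depth is unknown. Instead of a test, a difference of at least 1.2-fold on this scale (a log2 ratio of 0.26) was counted. It was set beside the same count over all measured genes. Other folds given for single genes are plain ratios of FPKM, without the added 1 FPKM. In bulk RNA, fewer cells of a type and less RNA per cell cannot be told apart.

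The targeted gene and cell markers were read first. Foxo3 stood at 10.3 (WT) and 0.548 FPKM (KO), 5.33% of the WT level, which is the direction its label gives. Of 14 measured macrophage markers, 13 had the lower value in the KO library, as 4240 of all 10003 measured genes did. The summed level over the 15 listed was 10403 (WT) and 8451 FPKM (KO). Lyz2, which held most of this sum at 7501 (WT) and 5674 FPKM (KO), had a log2 ratio of -0.40. Cd68 and Csf1r had log2 ratios of -0.02 and -0.01. By at least 1.2-fold, 7 of the 14 were lower, against 6.23% of all measured genes, and 0 were higher. The log2 ratios of the 14 ran from -0.63 to 0.02. Of 15 osteoclast markers 12 were higher, against 57.6% of all measured genes, with a summed level of 21983 and 24714 FPKM. Acp5, Ctsk and Mmp9, which held most of this sum, had log2 ratios of 0.16, 0.17 and 0.22. The lower markers were Itgb3, Calcr and Dcstamp, with log2 ratios of -0.28, -0.06 and -0.02. At least 1.2-fold higher was 1 osteoclast marker, against 4.93% of all measured genes, and 1, Itgb3, was lower by that much, against 6.23%. The part of either marker list in the values of the sterol branch was not tested. Of 10 markers of adipocytes, which are rich in Scd and Fasn transcripts, 6 were listed at 0 in both libraries (Adipoq, Plin1, Lep, Cfd, Cidec and Retn). Plin4 was below 1 FPKM in both. Cebpa, Pparg and Fabp4, which macrophages also express, were lower in the KO library, with log2 ratios of -0.28, -0.63 and -0.95.

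The sterol branch stood higher in the KO library almost throughout. Of its 17 listed genes, all measured, 16 were higher in the KO library, while 57.6% of all measured genes were. A difference of at least 1.2-fold upward was reached by 8 of the 17, against 4.93% of all measured genes and 3.84% of the 6165 genes at 10 FPKM or more. None of the 17 was at least 1.2-fold lower, a size that 6.23% of measured genes reached. The median log2 ratio was 0.24, and that of all measured genes was 0.03. The summed level of the 17 genes was 404.1 (WT) and 496.5 FPKM (KO), a ratio of 1.23. No member of either branch reached 2-fold, as 0.32% of measured genes did in 1 direction or the other.

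The fatty acid branch was also on the higher side, with smaller differences in most of its genes. Of its 11 listed genes, 9 were measured and all 9 were higher in the KO library, against 57.6% of all measured genes. Fads2 and Elovl6 stayed under 1 FPKM in both libraries. Scd1 passed the minimum only through the KO library, so it could only count as higher, and its difference is partly set by that filter. The median log2 ratio was 0.13 over the 9 genes and 0.09 over all 11, of which 10 were higher. At least 1.2-fold higher were 2 of the 9, Scd2 and Scd1, against 4.93% of all measured genes. Of these 2, only Scd2 passed the minimum in both libraries. The summed level of the 11 genes was 304.2 (WT) and 355.9 FPKM (KO), a ratio of 1.17, and Scd2 alone made up 49.0% of the difference summed over the 9 measured genes.

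Set against each other, the medians of the branches differed by 0.11 (sterol minus fatty acid). Outside Scd1 and Scd2, the 7 other measured fatty acid genes had log2 ratios from 0.04 to 0.19, and 13 of the 17 sterol genes lay above the highest of them, Acly. The branches still overlapped, since no sterol gene exceeded Scd2 and the sterol gene Fdft1 lay below every measured fatty acid gene. The mean over members gave a difference of 0.06, and at a minimum of 10 FPKM the medians differed by 0.23. This contrast has no test, because 1 library per group gives no spread between replicates. The smallest sterol difference counted as 1.2-fold was that of Msmo1, at 0.32, and the largest below it was that of Dhcr7, at 0.24.

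**Figure D1:**
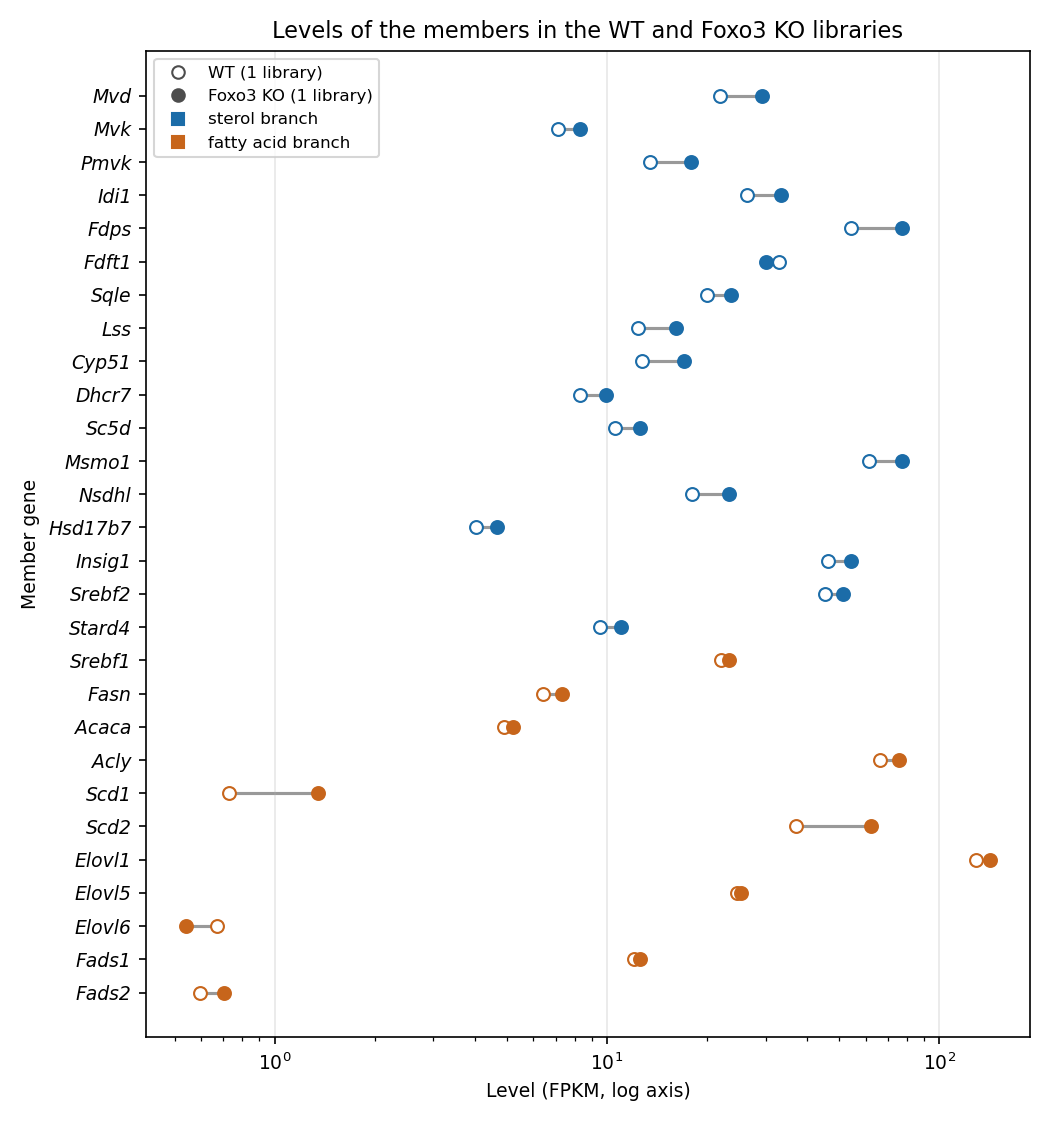
Level of each of the 28 listed genes in FPKM on a log axis, with open circles for the WT library, filled circles for the KO library, and colour for the branch. The filled circle lies to the right in 26 genes and to the left in Fdft1 and Elovl6, and the longest gaps between the circles are those of Scd1 and Scd2.

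Promoter sequences are shown because SREBPs are known to act together with NF-Y, which binds CCAAT, and with Sp1, which binds the GC box. RefSeq windows of 300 bases, from 250 bases before to 50 bases after a start site (build GRCm38.p6), were found for 21 of the 28 listed members, 13 sterol and 8 fatty acid genes. The box CCAAT, the GC box GGGCGG and TCACNCCAC, 1 pattern for the sterol regulatory element, were searched on both strands, with overlapping matches kept. CCAAT was found for 13 of 13 sterol members, for 5 of 8 fatty acid members and for 43.3% of 8125 measured genes. Of all 32851 windows, 37.4% held it. The fatty acid members without CCAAT were Acaca, Elovl6 and Fads2. Of these, Elovl6 and Fads2 were not measured genes, while the 43.3% covers measured genes only. GGGCGG was found for 12 of 13 sterol members, for 4 of 8 fatty acid members and for 70.3% of measured genes, and 35.7% of all windows held it. TCACNCCAC was found for 0 of the 21, for 1.27% of measured genes and in 1.24% of all windows. Only this 1 exact pattern was searched, so the absence of matches does not show that these promoters lack a sterol regulatory element. A gene was counted if any of its windows held the motif, and 4 of the 21 members had more than 1 window. These matches are descriptions and not binding sites, and the members were chosen as SREBP genes, for which CCAAT boxes are known.

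Below are the windows of 3 sterol genes past 1.2-fold (Mvd, Cyp51 and Nsdhl), of Fasn and of Fads2, 5′ to 3′ on the strand of the gene, with matches to CCAAT and GGGCGG on either strand in capitals. They lie at chr8:122443373-122443672 (Mvd, minus strand), chr5:4104648-4104947 (Cyp51, minus strand), chrX:72918271-72918570 (Nsdhl, plus strand), chr11:120824498-120824797 (Fasn, minus strand) and chr19:10101454-10101753 (Fads2, minus strand).
Mvd: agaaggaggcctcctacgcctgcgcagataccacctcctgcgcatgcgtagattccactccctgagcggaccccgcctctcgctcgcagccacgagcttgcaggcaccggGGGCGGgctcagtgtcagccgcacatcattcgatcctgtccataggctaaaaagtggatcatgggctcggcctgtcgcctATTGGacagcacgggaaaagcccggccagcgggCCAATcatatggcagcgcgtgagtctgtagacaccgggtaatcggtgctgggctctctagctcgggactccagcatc
Cyp51: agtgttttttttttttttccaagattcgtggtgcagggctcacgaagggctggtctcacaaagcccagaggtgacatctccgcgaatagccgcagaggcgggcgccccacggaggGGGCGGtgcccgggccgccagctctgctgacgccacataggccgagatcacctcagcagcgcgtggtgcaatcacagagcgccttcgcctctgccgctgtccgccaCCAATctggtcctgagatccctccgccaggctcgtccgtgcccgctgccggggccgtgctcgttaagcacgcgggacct
Nsdhl: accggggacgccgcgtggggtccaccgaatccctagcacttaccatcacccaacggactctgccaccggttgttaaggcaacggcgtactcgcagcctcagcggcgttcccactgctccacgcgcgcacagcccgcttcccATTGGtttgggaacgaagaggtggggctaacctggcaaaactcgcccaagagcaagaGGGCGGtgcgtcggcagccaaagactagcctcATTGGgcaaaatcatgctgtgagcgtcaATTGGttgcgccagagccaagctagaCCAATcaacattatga
Fasn: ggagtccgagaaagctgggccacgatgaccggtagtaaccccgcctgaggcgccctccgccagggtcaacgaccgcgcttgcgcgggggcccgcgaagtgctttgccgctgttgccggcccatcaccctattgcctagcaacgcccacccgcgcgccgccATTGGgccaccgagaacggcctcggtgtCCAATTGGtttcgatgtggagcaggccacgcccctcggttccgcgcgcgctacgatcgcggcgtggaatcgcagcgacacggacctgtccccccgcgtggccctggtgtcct
Fads2: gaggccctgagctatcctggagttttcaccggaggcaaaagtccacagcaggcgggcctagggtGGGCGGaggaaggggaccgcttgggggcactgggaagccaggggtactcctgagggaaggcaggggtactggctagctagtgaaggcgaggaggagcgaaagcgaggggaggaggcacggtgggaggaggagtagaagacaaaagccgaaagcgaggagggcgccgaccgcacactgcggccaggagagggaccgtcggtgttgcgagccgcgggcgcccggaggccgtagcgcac
CCAAT occurs 2 times in the window of Mvd, 1 time in that of Cyp51, 4 times in that of Nsdhl and 0 times in that of Fads2. In the window of Fasn it occurs 3 times, where one pair overlaps on opposite strands. The end of the window was found in an annotated transcript of the gene for Mvd, Cyp51, Fasn and Fads2. For Nsdhl it was not, so the start site of that window is uncertain. Nsdhl and Cyp51 were past 1.2-fold with 4 matches and 1 match, and Fasn was not with 3. Some of the Nsdhl matches lie after the start site of the window. These genes were picked for display, and whether the number of matches goes with the difference was not tested.

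The mevalonate steps turn acetyl units into the activated isoprene unit. Mvk, mevalonate kinase, stood at 7.13 (WT) and 8.32 FPKM (KO). Pmvk, the next kinase, stood at 13.5 and 17.9 FPKM in the same order, and Mvd, the decarboxylase that ends this stretch (chromosome 8, 122433601 to 122443422 in mm10, as are the gene positions that follow), at 21.9 and 29.2 FPKM. All 3 were higher in the KO library, Mvd and Pmvk by 1.33-fold each and Mvk by 1.17-fold. The log2 ratios were 0.40 for Mvd and 0.38 for Pmvk, and 0.20 for Mvk.

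The next enzymes join isoprene units into longer chains. Idi1, the isomerase of the isoprene unit, stood at 26.3 (WT) and 33.4 FPKM (KO). Fdps, farnesyl diphosphate synthase (chromosome 3, 89093588 to 89101959), stood at 54.1 and 76.9 FPKM. With a log2 ratio of 0.50, Fdps had the largest difference of the sterol branch, and 0.69% of all measured genes lay above it. Fdps supplied 24.7% of the FPKM difference summed over the branch. Its value is uncertain because 86.4% of the 50-base stretches of its longest transcript also occur in transcripts of other genes. Most of these are shared with Gm43738, annotated on the same strand, whose exons overlap 26.7% of the exon length of Fdps. How the authors assigned such reads is not given in the sources used here. For Idi1 the share of 50-base stretches found in other genes was 21.3%.

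At squalene the pathway commits to sterols. Sqle, squalene epoxidase, stood at 19.9 (WT) and 23.5 FPKM (KO), and Lss, which closes the chain into lanosterol, at 12.4 and 16.2 FPKM. Fdft1, squalene synthase (chromosome 14, 63145150 to 63179578), went the other way, with 32.9 (WT) and 30.0 FPKM (KO). Its log2 ratio of -0.13 was the only one below 0 in the branch, and the next lowest, that of Hsd17b7, was 0.17. The exons of Fdft1 share 774 bases, 18.3% of its exon length, with those of Ctsb on the opposite strand. Ctsb, the lysosomal protease cathepsin B, stood at 1393 (WT) and 1043 FPKM (KO), a log2 ratio of -0.42. Whether reads of Ctsb entered the value of Fdft1 was not tested, and strand use in counting is not given in the sources used here. Fdft1 also shares 10.9% of its 50-base stretches with Gm6781.

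The last enzymes turn lanosterol into cholesterol, and all 6 were higher in the KO library. Cyp51, the lanosterol demethylase, stood at 12.7 (WT) and 17.1 FPKM (KO), and Msmo1, a sterol methyl oxidase, at 61.3 and 77.0 FPKM. Nsdhl, which works with Msmo1 on the same methyl groups, stood at 18.0 and 23.3 FPKM. These 3 were past 1.2-fold, with log2 ratios of 0.40, 0.32 and 0.36. Hsd17b7, the ketoreductase of the same complex, stood at 4.02 and 4.66 FPKM, Sc5d, the sterol desaturase, at 10.5 and 12.6 FPKM, and Dhcr7, whose product is cholesterol, at 8.29 and 9.96 FPKM. Their log2 ratios ran from 0.17 to 0.24 and stayed below the 1.2-fold mark, which holds for levels with 1 FPKM added. As a plain ratio of FPKM, Dhcr7 was 1.202-fold higher. The median over the 6 genes was 0.28.

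The regulators and the carrier of the sterol branch showed smaller differences than most of its enzymes. Srebf2 (chromosome 15, 82147181 to 82205379) stood at 45.1 (WT) and 51.2 FPKM (KO), Insig1 (chromosome 5, 28071363 to 28078662) at 46.3 and 54.2 FPKM, and Stard4, a soluble sterol carrier, at 9.54 and 11.0 FPKM. Their log2 ratios were 0.18, 0.22 and 0.19, and none of the 3 was past 1.2-fold. With these genes and Srebf1 left out, so that only enzymes remained, the sterol median was 0.33 and the fatty acid median 0.15.

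**Figure D2:**
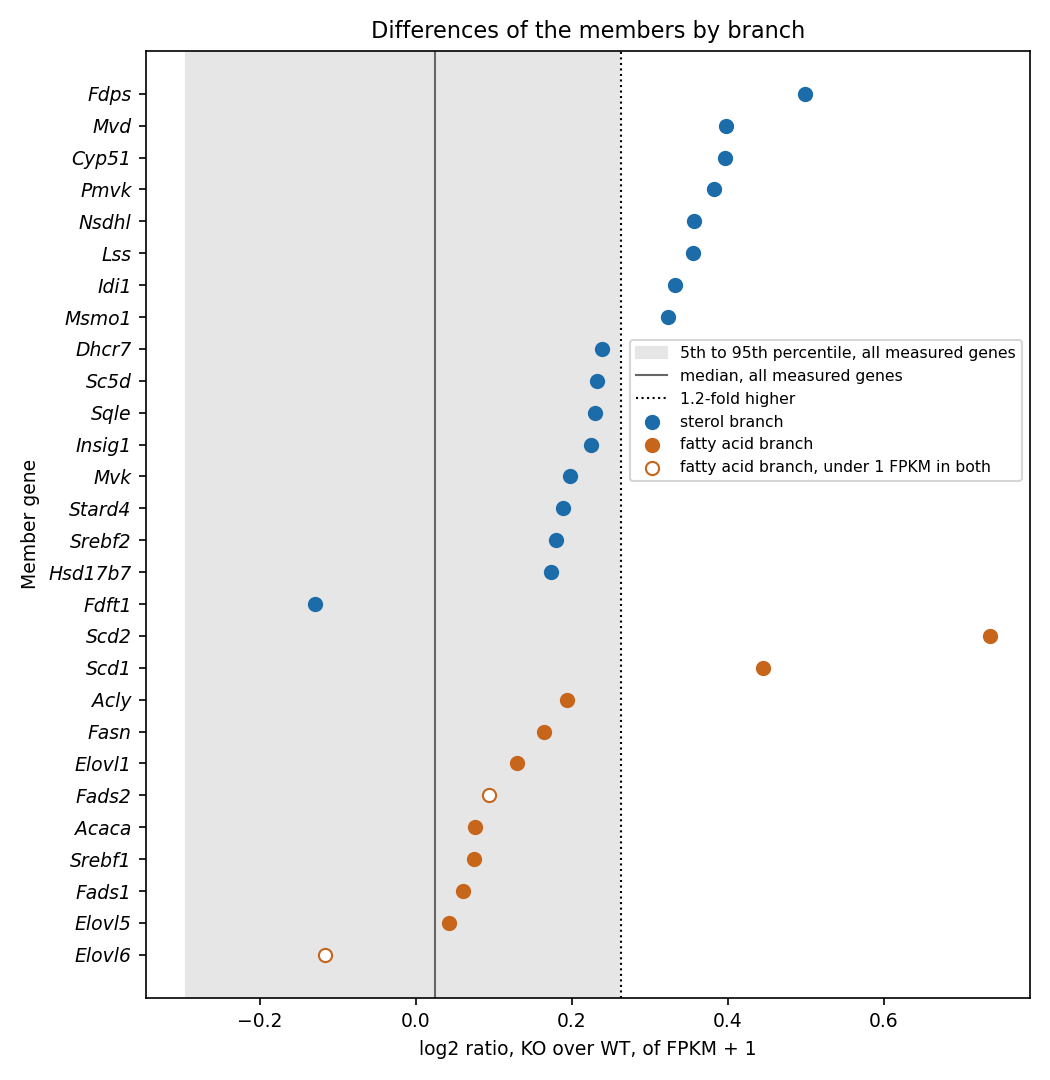
log2 ratio of each member, KO over WT, sorted within its branch. The grey band spans the 5th to 95th percentile of all measured genes, the solid line is their median and the dotted line marks 1.2-fold; 8 sterol genes, Scd1 and Scd2 lie to the right of the dotted line, and Fdft1 and Elovl6 (open circle, under 1 FPKM in both libraries) lie below 0.

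In the fatty acid branch, Srebf1 (chromosome 11, 60199089 to 60222581) stood at 22.0 (WT) and 23.2 FPKM (KO), a log2 ratio of 0.07. The gene-level value does not separate its isoforms. Srebf2 was the more abundant of the SREBP genes, at 2.05 times Srebf1 in the WT and 2.21 times in the KO library.

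Palmitate is built from cytosolic acetyl-CoA by Acly, Acaca and Fasn. Acly, ATP citrate lyase, which also feeds the sterol branch, stood at 66.1 (WT) and 75.8 FPKM (KO). Acaca, acetyl-CoA carboxylase, stood at 4.88 and 5.20 FPKM and Fasn, fatty acid synthase, at 6.40 and 7.30 FPKM. All 3 were higher in the KO library, by 1.07-fold to 1.15-fold, and none was past 1.2-fold. Acaca shares 52.6% of its 50-base stretches with Gm5182, so its level is uncertain.

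Desaturases place double bonds in fatty acids, and the stearoyl-CoA desaturases held the largest ratios of KO to WT level in the whole set. Scd2 (chromosome 19, 44293674 to 44306864) stood at 37.0 (WT) and 62.4 FPKM (KO), 1.68-fold higher with a log2 ratio of 0.74. Only 0.19% of measured genes had a higher log2 ratio. Scd1 (chromosome 19, 44394455 to 44407879), its neighbour, stood at 0.726 and 1.35 FPKM, 1.86-fold higher with a log2 ratio of 0.44, which became 0.71 with 0.25 FPKM added and 0.15 with 5 FPKM added. Scd2 stood at 51.0 times Scd1 in the WT and 46.2 times in the KO library. Of the 50-base stretches of Scd1, 3.03% occur in Scd2, so reads of the abundant gene could enter the low one at these places, and this was not tested.

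The desaturases of polyunsaturated fatty acids differed little. Fads1 stood at 12.02 (WT) and 12.58 FPKM (KO), a log2 ratio of 0.06. Fads2, which acts before Fads1 on the same chain, was low in both libraries at 0.596 and 0.704 FPKM. Fads1 stood at 20.2 times Fads2 in the WT and 17.9 times in the KO library.

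Elongases add carbons to fatty acids of different lengths. Elovl1, which extends very long saturated chains, was the most abundant member of either branch, at 129.2 (WT) and 141.5 FPKM (KO). Elovl5, which extends polyunsaturated chains, stood at 24.6 and 25.3 FPKM. Elovl6, which extends palmitate, stood at 0.671 and 0.542 FPKM, under the minimum in both. The log2 ratios were 0.13, 0.04 and -0.12, all within the range that holds most measured genes, whose 5th percentile was -0.29 and 95th percentile 0.26.

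**Figure D3:**
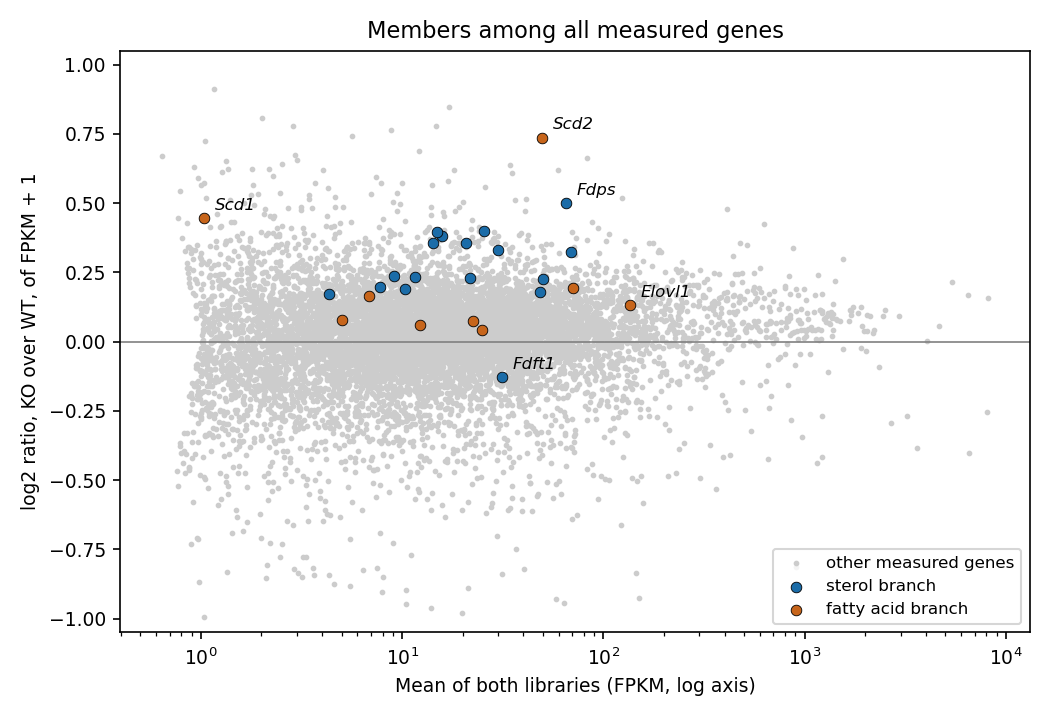
log2 ratio of measured genes against their mean level in FPKM on a log axis, with the 26 measured members in colour and the 32 genes beyond 1 on the log2 scale not drawn. Of the members, 10 lie past the 95th percentile of all measured genes (8 sterol genes, Scd1 and Scd2), Fdft1 lies below 0, and the others of both branches lie between.

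Other genes of the pathway came from lists of 12 to 24 genes. Among 12 other sterol and isoprenoid synthesis genes, 9 were higher in the KO library, against 57.6% of all measured genes. The list had a median log2 ratio of 0.03. At least 1.2-fold higher were 3, against 4.93% of all measured genes, and none was lower by that much. Among those past 1.2-fold, and named after their values were seen, were Acat2 (2.44 and 3.83 FPKM) and Tm7sf2 (2.82 and 4.34 FPKM). This list was split by product after the values were seen. The 6 genes that use farnesyl units for other products were Ggps1, Dhdds, Nus1, Coq2, Fntb and Pggt1b. They had a median of 0.01 and a mean of the opposite sign, -0.02. They ranged from -0.18 to 0.07, with a summed level of 119.3 FPKM in both libraries. The 6 other sterol genes had a median of 0.31, and 3 of them were at least 1.2-fold higher. Lbr and Ebp, of the same 6, had log2 ratios of -0.05 and 0.03, within the range of the first group.

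The genes that process and sense SREBPs stayed close to the median gene. Of 12 listed, 10 were higher in KO cells, against 57.6% of all measured genes, and 2 lower, none by 1.2-fold. The median log2 ratio was 0.07. Scap stood at 11.7 (WT) and 12.4 FPKM (KO), Mbtps1 at 30.7 and 31.9 FPKM, Mbtps2 at 19.2 and 18.6 FPKM and Insig2, the partner of Insig1, at 20.8 and 23.1 FPKM. Genes of this list that act in protein degradation at the endoplasmic reticulum had log2 ratios of 0.02 for Rnf139, 0.07 for Aup1, 0.03 for Ube2g2 and 0.07 for Ufd1. Those for Erlin1 and Erlin2, also known from this control, were 0.11 and 0.18.

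Genes of sterol uptake, release and storage were split in direction. Of 11 measured genes, 7 were higher and 4 lower, near the 57.6% of all measured genes that were higher. The median log2 ratio was 0.04 and the mean had the opposite sign, -0.09. At least 1.2-fold higher was 1 gene, against 4.93% of all measured genes, and 3 were at least 1.2-fold lower, against 6.23%. The lower ones were Lrp1, a lipoprotein receptor (33.8 FPKM in WT and 22.8 FPKM in KO cells), Lipa, the lysosomal lipase that frees cholesterol from lipoproteins (428.7 and 296.1 FPKM), and Soat1, which esterifies cholesterol for storage (52.1 and 41.2 FPKM).

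A list of LXR receptors, their partners and LXR targets was mostly lower, while Srebf1, Fasn and the Scd genes, also known LXR targets, were counted in the fatty acid branch. In the KO library 8 of 12 genes were lower and 4 higher, while 57.6% of all measured genes were higher. The median log2 ratio was -0.27. At least 1.2-fold lower were 6, against 6.23% of all measured genes, and none was that much higher. Lpl, lipoprotein lipase, stood at 266.7 (WT) and 191.6 FPKM (KO), Apoe at 1329 and 981.5 FPKM, and Pltp, the phospholipid transfer protein, at 484.2 and 364.7 FPKM. Several of these are also macrophage genes. Among 16 measured genes of other fatty acid synthesis and activation, 12 were higher, against 57.6% of all measured genes, and 4 lower. Their median was 0.11, and 2 were at least 1.2-fold higher, against 4.93% of all measured genes. Acsl3, an acyl-CoA synthetase, stood at 15.6 and 20.4 FPKM, Acsl1 at 45.4 and 52.0 FPKM and Hacd4 at 41.0 and 34.8 FPKM. Beside Acsl3, Elovl7 was at least 1.2-fold higher, with a log2 ratio of 0.33. It stood at 0.716 (WT) and 1.16 FPKM (KO), so it passed the minimum only through the KO library, and it was named after its value was seen.

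**Figure D4:**
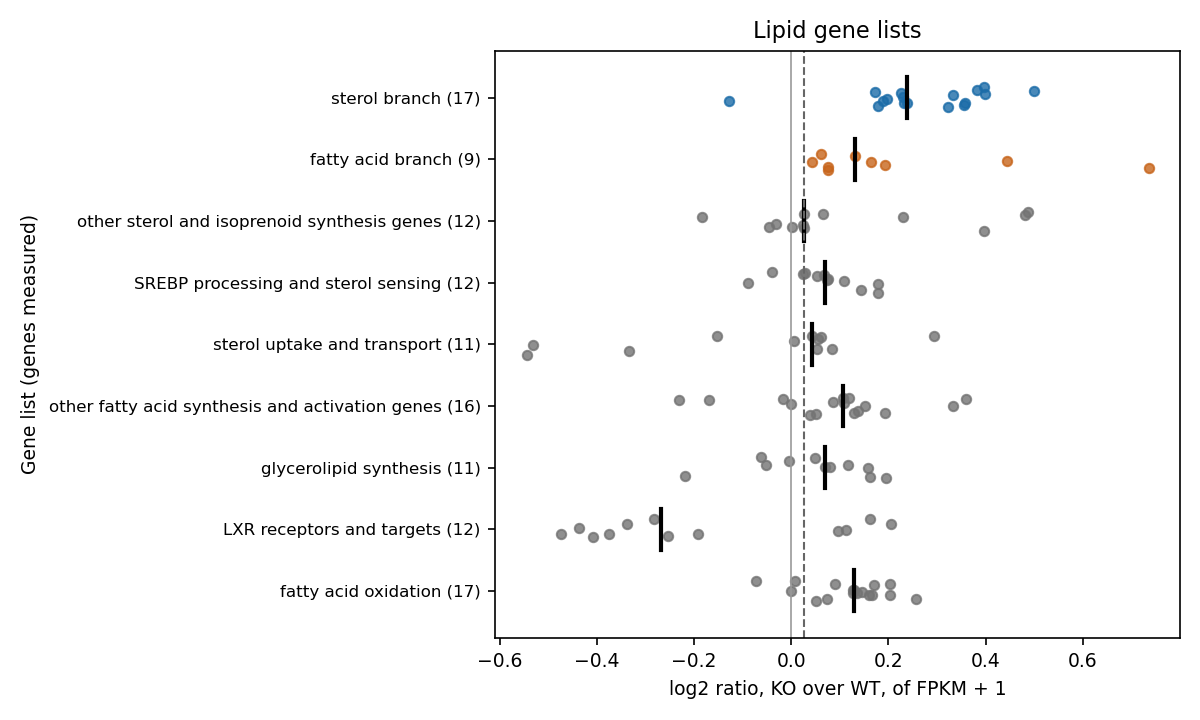
log2 ratio, KO over WT, of each measured gene in the lipid gene lists, with points spread vertically for legibility, a black bar at the median of each list and a dashed line at the median of all measured genes. The sterol branch has its median at 0.24 and the LXR list at -0.27, with the other lists between them.

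Members were also unlike in transcript length. The median was 2815 bases in the sterol branch, 4426 bases in the fatty acid branch and 3089 bases over all measured genes, with GC contents of 49.3%, 52.1% and 50%. After trends on length and GC content were removed, an alternative chosen after the data had been seen, the medians were 0.25 for the sterol and 0.15 for the fatty acid branch, with 16 of 17 and 9 of 9 genes above 0. Level did not order the differences: over the 26 measured members, which share both libraries, the log2 ratio and the log2 WT level had a Pearson correlation of -0.02. The 28 listed members lie on 15 chromosomes. Exons of 9 of them overlap another annotated gene, and for 4 that gene is listed in the files: Ctsb for Fdft1, Akap9 for Cyp51, Rai1 for Srebf1 and Cdc20 for Elovl1. The last 3 had log2 ratios of -0.07, -0.06 and 0.06.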

How the data were processed

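Libraries came from poly-A selected RNA and an Illumina TruSeq kit, per the labels' protocols. The deposited values were read as FPKM, a unit taken from the values, since neither the file headers nor the labels name it. TopHat, edgeR and the build mm10 were used by the authors, per the submitters' processing notes, in roles these notes do not state. For quantifier, annotation and filters the sources used here give nothing. A constant of 0.000001 carried by every deposited value was subtracted. The WT and KO libraries were compared as log2 ratios with a pseudocount of 1 FPKM, without a test. Sterol and fatty acid members, 13 further gene lists and the naming rule (all members, all SREBP processing genes, the 3 genes farthest from 0 of each other pathway list at 10 FPKM or more, the 3 most abundant genes of each marker list) were chosen with earlier results of these data known. Some genes that this rule names are not reported here. Symbols were matched through RefSeq synonyms, and 200 of 201 list entries were found. Coordinates, overlaps and shared 50-base stretches came from GENCODE M21 on mm10. Trimmed-mean scaling trimmed 30% of log ratios and 5% of levels at each end, and lowess used a span of 0.3. Other alternatives were pseudocounts, minimums, thresholds and subsets of members. The fold rule was tested on simulated data, with an outcome not given here, and such a test cannot show the spread between replicates. Python 3.11.15, numpy 2.4.6, pandas 2.3.3, statsmodels 0.14.6 and matplotlib 3.10.9 were used.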

Additional observations from a re-analysis of the deposited data

How the results depend on the processing

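All medians and counts of higher genes of both branches kept their direction under every alternative that entered them. A pseudocount cannot change the sign of a log2 ratio, and a threshold does not enter these values. The sterol median ran from 0.21 to 0.33 and the fatty acid median from 0.08, without Scd1 and Scd2, to 0.21, as the mean over members. The difference of the medians was 0.23 at a minimum of 10 FPKM and 0.06 as a difference of means. Both scalings lowered the median of all genes by about 0.03. The count of sterol genes past the threshold was 16 at 1.1-fold, 0 at 1.5-fold and 0 at 2-fold. For the fatty acid branch it was 4, 1 and 0 at these thresholds, 1 with a pseudocount of 5 and 1 at a minimum of 10 FPKM. Over all genes, in both directions, 1116 passed 1.2-fold, 3401 passed 1.1-fold, 135 passed 1.5-fold and 32 passed 2-fold, while 487 passed 1.2-fold with a pseudocount of 5 and 548 at a minimum of 10 FPKM. These follow from the construction of the settings. Among recomputed log2 ratios of single members, 109 stayed within 0.1 of their value and 3 did not: Scd1, at 0.71 and 0.15 with pseudocounts of 0.25 and 5, and Elovl6, at -0.22 with 0.25. Removing trends and leaving out Scd1 and Scd2, or members sharing over 10% of 50-base stretches, were chosen after the data had been seen. No paired analysis was possible because neither genotype has more than 1 library, and for the same reason no library could be left out. Depth is unknown, and it limits Scd1, Fads2 and Elovl6 most.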

Other observations

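Fatty acid oxidation genes lay on the higher side in the KO library as well. Of 17 measured genes, 15 were higher, against 57.6% of all measured genes, and 2 lower, and none was past 1.2-fold. The median log2 ratio was 0.13, the same as that of the fatty acid synthesis branch. Cpt2, of the mitochondrial carnitine shuttle, stood at 21.6 (WT) and 25.98 FPKM (KO), and the acyl-CoA dehydrogenase genes Acadm and Acadvl at 68.3 and 78.8 FPKM and at 55.8 and 64.3 FPKM. Of 11 measured genes of glycerolipid synthesis, 7 were higher and 4 lower, near the 57.6% of all measured genes that were higher. The median was 0.07, and no gene was past 1.2-fold in either direction. Lpcat3, a phospholipid acyltransferase, had a log2 ratio of 0.16, Cept1 one of 0.16 and Agpat3 one of -0.22.

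Markers of other cells were mostly low. Of the stromal list, Col1a1, Col1a2 and Kitl were the most abundant, and none passed 6.22 FPKM in either library. Of the neutrophil list, S100a8 stood at 70.2 (WT) and 67.0 FPKM (KO), S100a9 at 53.6 and 55.4 FPKM and Ngp at 24.5 and 22.0 FPKM. Their log2 ratios were -0.07, 0.05 and -0.15, and over the 9 measured genes of this list the range was -1.004 to 0.29. The lower end was Retnlg, listed at 1.01 FPKM (WT) and 0 (KO), which passed the minimum only through the WT library and was named after its value was seen. Cd4 was the 1 measured gene among markers of T, NK and B cells, at 6.77 (WT) and 6.27 FPKM (KO).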
